A study of Homo sapiens with 16 samples.

Results

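In THP-1 cells with ALKBH5 knocked down, conversion rates of newly made RNA were compared between the start of a uridine chase and 1.5 h later. The comparison took 4 of the 16 libraries of the series, 2 at each time, and the 10553 of 60564 listed genes with a CPM (reads scaled to library size) of at least 5. Of these, 4 genes had a rate of 0 in all libraries, which left 10549 genes tested. THP-1 is a human monocytic leukaemia line, and ALKBH5 is an enzyme that removes the methyl mark m6A from adenosines in RNA. Cells of both genotypes, the knockdown (A5-KD) and the wild-type control, had been given 100 µM 4-thiouridine (4sU) for 1 h, washed, moved to medium with 10 mM uridine and collected after 0, 1.5, 4.5 or 7.5 h. How the knockdown was made, and whether it was 1 clone, is not given in the sources used here. All libraries came from 1 cell line, and no label stated that replicates were separate cultures, so each p-value reflects the spread between these libraries, which may be technical.

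In this assay, SLAM-seq, 4sU is built into RNA made during the pulse and is read as T-to-C conversions in the sequencing reads. During the chase the labelled RNA is lost or is diluted by unlabelled RNA, so the conversion rate of a short-lived mRNA falls quickly and that of a long-lived mRNA falls slowly. Early in a chase, labelled precursors that are still being spliced and exported, and 4sU that has not yet left the cells, can also add to the rate of a mature mRNA. A rate is a share of a gene's RNA and holds no information on its amount. m6A is known for marking many mRNAs for faster decay, and several mRNAs of transcription factors and cytokines are known for very short lives.

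In their medians, the knockdown libraries were close to each other within each time. Their median rates over the genes tested averaged 1.21% ± 0.00944 (SD, n = 2) at 0 h and 1.10% ± 0.0105 at 1.5 h, against 0.552% ± 0.0124 and 0.475% ± 0.00437 in control. Spearman correlations between the knockdown replicates, over 10549 genes that are not independent, were 0.847 at 0 h and 0.770 at 1.5 h. Single genes differed between these replicates by a median of 0.260 log2 at 0 h and 0.249 log2 at 1.5 h. The number of bases behind each rate is unknown, so no counting interval can be given. Of 18 genes of THP-1 identity, 15 had at least 5 CPM, with a summed CPM of 4789. The sums were 66.7 for 14 lymphoid, 7.46 for 14 erythroid and megakaryocyte and 24.8 for 11 epithelial and kidney markers, and 9 of the 14 erythroid and megakaryocyte markers were at 0. ALKBH5 itself, on chromosome 17 from 18183078 to 18209954, had a CPM of 4.55 and so was not among the genes compared. In knockdown it went from 3.31% and 2.46% to 2.08% and 1.46%, values which do not test the knockdown, since rates hold no abundance. The genes just below the CPM limit were AC091544.6, BMT2 and KCTD1, each at 4.99999, and those just above it were GORAB, POLR3B and AP001273.2, each at 5.03.

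Over the first 1.5 h the typical rate changed little, with changes of both signs among single genes. The median change was −0.10 log2, with an interquartile range from −0.44 to 0.25. All log2 values are differences of log2(rate in percent + 0.05), a scale that understates changes at low rates. Both 1.5 h libraries lay above both 0 h libraries for 2157 genes (20.4%) and below them for 3628 genes (34.4%). For 2 libraries against 2, the smallest two-sided permutation p is 0.333, so such a gap in a single gene is common without any change. The interquartile range of the rates in replicate 1 was 0.604% to 1.77% at 0 h and 0.675% to 1.43% at 1.5 h. In replicate 2 it was 0.598% to 1.78% and 0.668% to 1.42%. Rates thus lay closer together after 1.5 h in both replicates. By limma with Benjamini-Hochberg adjustment at 0.05, 13 genes rose (0.123%) and 7 fell (0.0664%). At an unadjusted p under 0.05 there were 641 genes with a higher and 745 with a lower rate.

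**Figure D1:**
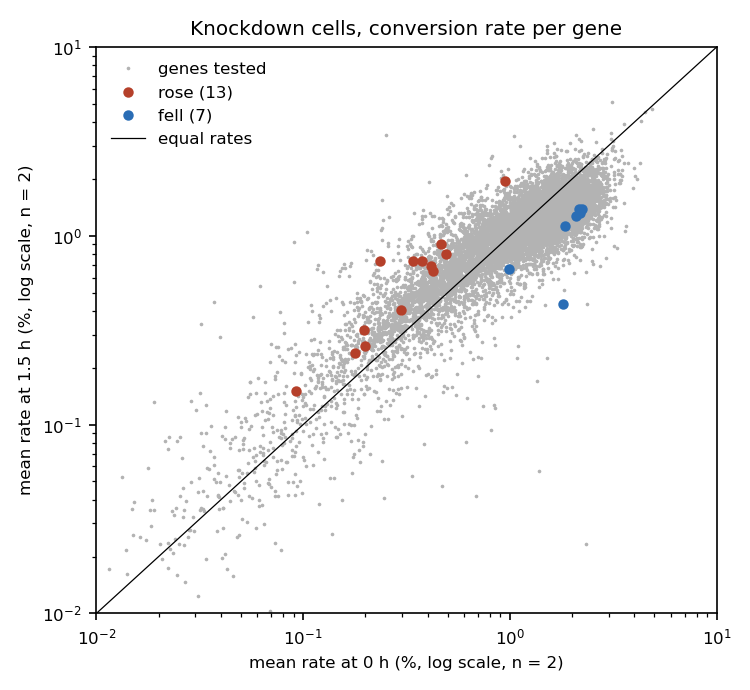
Mean conversion rate of each gene in the 2 knockdown libraries at 0 h (x axis, percent, log scale) and at 1.5 h (y axis, percent, log scale). Grey points are genes tested, 10517 of which lie within the axes and 32 outside, red points are the 13 genes that rose, blue points the 7 that fell, and the line marks equal rates. Genes with high rates at 0 h lie mostly below the line and genes with low rates mostly above it. The 0 h libraries enter both the x axis and each change, and the part of this overlap in the order was not tested.

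These 20 calls rest on all 4 libraries compared and on a spread estimated over all 16 libraries of the series. Leaving out either 0 h or either 1.5 h knockdown library left 0 calls in each direction, with adjusted p of up to 0.387 among the 20 genes, although all 20 kept their direction. With libraries centred, that is with its median log2 rate subtracted from each, which adds 0.13 log2 to every knockdown change, 128 genes rose (1.21%) and 7 fell (0.0664%). At a pseudocount of 0.2 the counts were 81 and 107. List medians given below shift up by the same 0.13 when centred. A fit without the variance trend, a fit of the 8 knockdown libraries alone and a fit of the 4 libraries alone also gave 0 calls.

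The 7 genes that fell included 3 transcription factor genes. ZEB2, a zinc finger repressor of myeloid cells on chromosome 2 from 144364364 to 144524583, had rates of 2.29% and 2.19% at 0 h and 1.34% and 1.42% at 1.5 h. FOXP1, a forkhead transcription factor on chromosome 3 from 70952817 to 71583993, went from 2.16% and 2.19% to 1.28% and 1.38%. CUX1, a homeobox transcription factor on chromosome 7 from 101815904 to 102283958, went from 1.88% and 1.83% to 1.18% and 1.08%. In all of these both 1.5 h libraries were well below both 0 h libraries, by 0.68 (SE 0.117) for ZEB2, 0.69 (SE 0.107) for FOXP1 and 0.69 (SE 0.114) log2 for CUX1, with adjusted p of 0.045, 0.0328 and 0.045.

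DLEU2, a long noncoding RNA that hosts the microRNAs miR-15a and miR-16-1 and lies on chromosome 13 from 49982552 to 50125720, went from 2.02% and 2.14% to 1.29% and 1.25%. It fell by 0.69 log2 (SE 0.0938, adjusted p = 0.0237), the smallest adjusted p of the 7. ADGRL3, an adhesion receptor of the latrophilin family on chromosome 4 from 61201258 to 62078335, went from 2.12% and 2.19% to 1.46% and 1.32%. It fell by 0.62 log2 (SE 0.107, adjusted p = 0.045). ZEB2, FOXP1, CUX1, DLEU2 and ADGRL3, and ZSCAN32 described next, each overlap other annotated genes, and since the strand used in counting is not given, reads of the partners cannot be told apart.

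The other genes that fell were of different kinds. MT-ND5, a complex I subunit encoded in the mitochondrial genome, went from 0.998% and 0.989% to 0.652% and 0.689%, and fell by 0.53 log2 (SE 0.091, adjusted p = 0.045). With libraries centred, MT-ND5 no longer passed (−0.41, adjusted p = 0.0572). ZSCAN32, a SCAN domain zinc finger gene with a CPM of 14.0, is named although its CPM lies below the 20 set for examples. It went from 1.93% and 1.70% to 0.412% and 0.463%, a fall of 1.93 log2 (SE 0.313, adjusted p = 0.0428). In control its libraries overlapped, and read 0.557% and 0.968% before and 0.536% and 0.683% after 1.5 h of chase.

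The 13 genes that rose had a median span of 5406 bases and a median CPM of 1186, against 160220 bases and 431 CPM for the genes that fell. Over all genes tested the medians were 37598 bases and 21.6 CPM, so the calls in both directions had a higher median CPM. The fit moderated variances along CPM, and the part of this in which genes passed was not tested. MTIF3, a mitochondrial translation initiation factor on chromosome 13 from 27435643 to 27450591, went from 1.01% and 0.888% at 0 h to 1.78% and 2.11% at 1.5 h, a rise of 0.99 log2 (SE 0.143, adjusted p = 0.0328). NEXN, an actin-binding protein on chromosome 1 from 77888513 to 77943895, went from 0.450% and 0.478% to 0.897% and 0.919%, a rise of 0.90 (SE 0.113, adjusted p = 0.0153). In both genes the 1.5 h libraries stood far above the 0 h libraries relative to the gap between replicates.

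CENPX, a kinetochore and DNA repair protein on chromosome 17 from 82018702 to 82024107, went from 0.400% and 0.279% to 0.721% and 0.752% and rose by 1.03 log2 (SE 0.175, adjusted p = 0.045). BANF1, which tethers chromatin to the nuclear envelope and lies on chromosome 11 from 66002079 to 66004149, went from 0.364% and 0.390% to 0.753% and 0.725% and rose by 0.89 (SE 0.134, adjusted p = 0.0328). VPS29, a retromer subunit on chromosome 12 from 110491097 to 110502117, went from 0.432% and 0.403% to 0.724% and 0.661% and rose by 0.67 (SE 0.0783, adjusted p = 0.0153). CNIH4, a cargo receptor of the early secretory pathway on chromosome 1 from 224356850 to 224379459, went from 0.504% and 0.474% to 0.815% and 0.785% and rose by 0.66 (SE 0.0819, adjusted p = 0.0153).

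HSPE1, the small mitochondrial chaperonin, went from 0.439% and 0.408% to 0.651% and 0.652%, a rise of 0.57 log2 (SE 0.0906, adjusted p = 0.0403). MYL6, a myosin light chain, went from 0.220% and 0.176% to 0.340% and 0.296%, a rise of 0.58 (SE 0.0989, adjusted p = 0.045). PSME1, a subunit of the proteasome activator PA28, went from 0.0887% and 0.0962% to 0.154% and 0.148%, a rise of 0.50 (SE 0.076, adjusted p = 0.0328). These rates are low, close to the pseudocount in PSME1, but both 1.5 h libraries were above both 0 h libraries in each gene.

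The smallest rises were seen in ATP5PF, FTL and B2M, which lie outside the 10 largest. ATP5PF, a subunit of ATP synthase, went from 0.302% and 0.290% to 0.405% and 0.402% (0.39 log2, SE 0.0651, adjusted p = 0.045). FTL, the ferritin light chain, went from 0.184% and 0.172% to 0.242% and 0.238% (0.35, SE 0.0583, adjusted p = 0.045). B2M, the light chain of HLA class I, went from 0.198% and 0.199% to 0.263% and 0.257% (0.32, SE 0.0491, adjusted p = 0.0328). FTL has near-identical pseudogene copies, and MYL6, HSPE1, VPS29, MTIF3, CENPX, BANF1, NEXN, PSME1 and ATP5PF overlap other annotated genes, so the assignment of reads to them is uncertain.

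**Figure D2:**
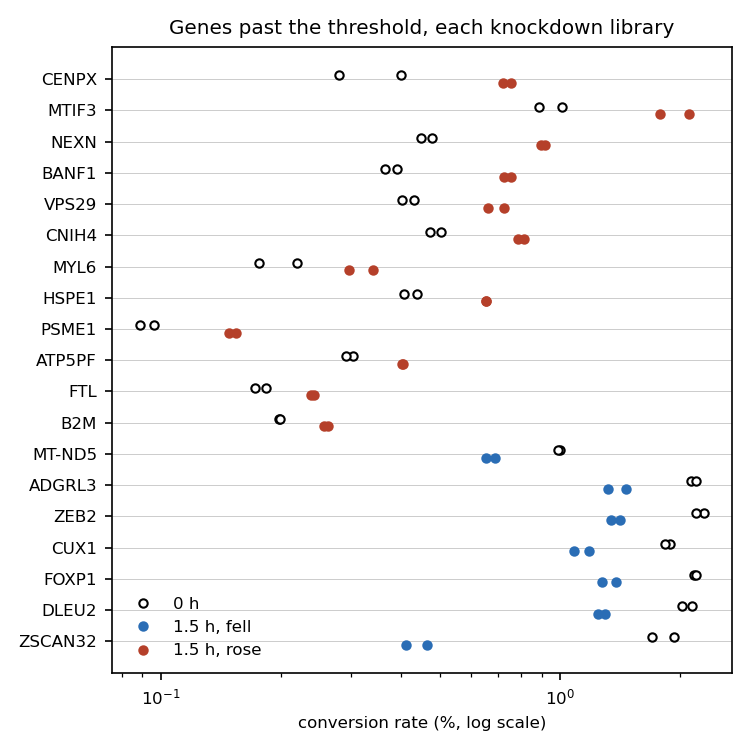
Conversion rate in percent (x axis, log scale) of 19 of the 20 genes past the threshold (y axis) in each knockdown library, with open circles for the 2 libraries at 0 h and filled circles for the 2 at 1.5 h (blue for genes that fell, red for genes that rose). The open and filled circles do not overlap in any of the 19 genes, and the genes that fell start between 0.994% and 2.24%, those that rose between 0.0925% and 0.949%.

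The later times show that the genes that rose took more than 1 course. All 7 genes that fell were lower at 7.5 h than at 1.5 h. Of the 13 that rose, 5 were lower at 7.5 h than at 1.5 h. MTIF3 had its highest mean at 1.5 h, followed by means of 1.19% ± 0.0713 (SD, n = 2) at 4.5 h and 0.845% ± 0.148 at 7.5 h. CNIH4 had means of 1.00% ± 0.0563 at 4.5 h and 0.978% ± 0.00141 at 7.5 h, and B2M of 0.308% ± 0.00264 and 0.327% ± 0.0107, so both were higher at each later time than at 1.5 h.

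**Figure D3:**
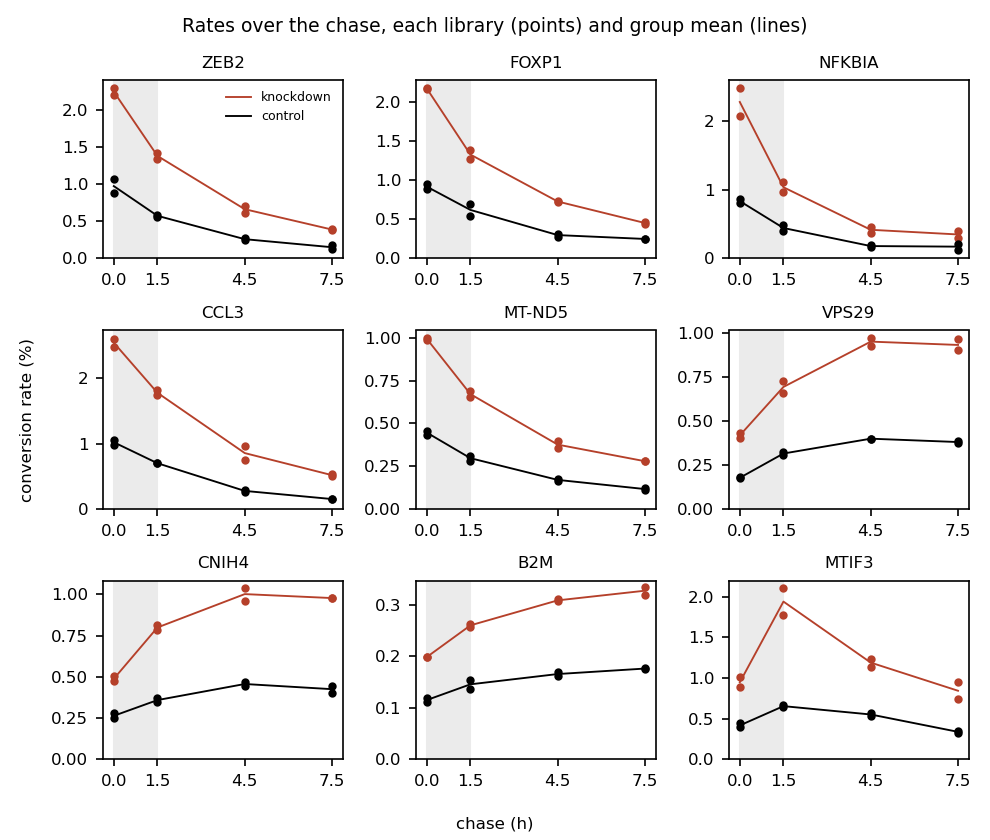
Conversion rate in percent (y axis) over the chase in hours (x axis) for ZEB2, FOXP1, NFKBIA, CCL3, MT-ND5, VPS29, CNIH4, B2M and MTIF3, with a point for each library and a line through the group means, knockdown in red and control in black. The interval from 0 to 1.5 h is shaded, and across it the points of ZEB2, FOXP1, NFKBIA, CCL3 and MT-ND5 are lower at 1.5 h than at 0 h in both genotypes, and those of VPS29, CNIH4, B2M and MTIF3 higher.

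Immediate early and short-lived mRNAs, which encode transcription factors, phosphatases and RNA-binding proteins of the first response to a stimulus, had the lowest median of the lists described. Their median rate in knockdown was 1.92% at 0 h and 1.31% at 1.5 h, a median change of −0.54 log2 against −0.10 over all genes tested. Of 33 members tested, 24 had both 1.5 h libraries below both 0 h libraries (72.7%, against 34.4% of all genes) and 1 had both above, but 0 passed the threshold. ZFP36, which binds AU-rich elements and hastens mRNA decay, went from 2.43% and 1.99% to 1.09% and 1.29% (−0.86, SE 0.425). Its relative ZFP36L2 went from 2.60% and 2.42% to 1.46% and 1.50% (−0.74, SE 0.235, adjusted p = 0.197), and EGR1, an early growth response transcription factor, from 2.41% and 2.92% to 1.30% and 1.57% (−0.87, SE 0.356). The 0 h and 1.5 h libraries did not overlap in any of these.

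Chemokines, cytokines and genes of NF-kB feedback showed a similar picture, with 16 of 29 members lower without overlap (55.2%, against 34.4% of all genes), 1 higher and 0 past the threshold. The median change was −0.37, and −0.25 without the knockdown 1.5 h library of replicate 1. NFKBIA, the inhibitor that holds NF-kB in the cytoplasm, went from 2.48% and 2.07% to 1.11% and 0.963% (−1.10, SE 0.197, adjusted p = 0.056), and passed when libraries were centred (−0.97, adjusted p = 0.0385). TNF, an inflammatory cytokine, went from 2.38% and 2.27% to 1.22% and 1.24% (−0.89, SE 0.241, adjusted p = 0.151). The chemokine CCL4 went from 2.77% and 2.86% to 1.66% and 1.70% (−0.73, adjusted p = 0.0779) and CCL3 from 2.48% and 2.61% to 1.74% and 1.81% (−0.51, adjusted p = 0.0839). The libraries of the times were apart in all of these. CCL3 and CCL4 have near-identical neighbouring copies, which makes the assignment of their reads uncertain.

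Many of these mRNAs carry AU-rich elements, and the nonamer UUAUUUAUU, the core bound by ZFP36 and its relatives, was looked for on the sense strand of annotated 3' UTRs (GENCODE 29, GRCh38, hg38). It overlaps the shorter motif AUUUA. Of the 62 members of both lists with an annotated 3' UTR, 15 held it, against 702 of 8845 genes (7.94%). Those 15 had a median change of −0.56 log2, and 10 were lower at 1.5 h without overlap (66.7%, against 34.4% of all genes), though 0 passed the threshold. The 47 members without it had a median of −0.42 and 30 lower (63.8%), so within these lists the shares with and without the nonamer were close. The first such element is shown for 4 members with at least 20 CPM that were lower without overlap, since they are among the members with lower rates at 1.5 h. Each is a stretch of 29 bases in a 3' UTR, 5′ to 3′ on the sense strand, with T for U and the nonamer in capitals.
TNF, chr6:31577990-31578018, plus strand: gcacttgtgaTTATTTATTatttatttat
ZFP36, chr19:39409196-39409224, plus strand: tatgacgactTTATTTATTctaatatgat
ZFP36L2, chr2:43223448-43223476, minus strand: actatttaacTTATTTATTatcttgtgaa
CXCL8, chr4:73742664-73742692, plus strand: atgtaaagtaTTATTTATTtgaatctaca

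The 3' UTR of TNF holds 5 copies of the nonamer, counted with overlaps. CXCL8, the chemokine interleukin-8, went from 2.004% and 1.998% to 1.11% and 1.51% (−0.61, SE 0.358). A match is a description of the sequence and does not show that it is bound.

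The same motif can be followed over all genes with an annotated 3' UTR. Genes with the nonamer had a median change of −0.31 log2 (n = 702) and 52.6% of them were lower without overlap, against −0.11 and 35.2% of 8143 genes without it. They also had longer 3' UTRs, with a median of 2977 bases against 923. In each quintile of 3' UTR length the median was lower with the nonamer, for example −0.28 (n = 18) against 0.08 (n = 1751) in the shortest and −0.33 (n = 377) against −0.26 (n = 1392) in the longest. By the number of AUUUA pentamers, the median went from 0.03 with 0 pentamers (n = 2704) through −0.08 with 1, −0.16 with 2 to 3 and −0.23 with 4 to 7 to −0.28 with 8 or more (n = 1582). 3' UTR length, gene span and the rate at 0 h all grow along with the pentamer count. From 0 to 8 or more pentamers the median span went from 21720 to 75549 bases. The median knockdown rate at 0 h went from 0.919% to 1.64%. The parts of these 3 in that order were not tested.

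Of 23 MLL-fusion and myeloid transcription factor genes, 12 were lower without overlap (52.2%, against 34.4% of all genes) and 2 higher. Their median was −0.34, and −0.16 without the knockdown 1.5 h library of replicate 2. ZEB2 was the member that fell, while PBX3, a cofactor of HOX proteins, went from 1.89% and 2.26% to 1.45% and 1.45% (−0.49, adjusted p = 0.0936) and MEF2C, a MADS box factor, from 2.06% and 2.12% to 1.64% and 1.52% (−0.40, adjusted p = 0.0794). Of 38 zinc finger transcription factor genes 22 were lower without overlap (57.9%, against 34.4%) and 2 higher; their median was −0.39, and 0 passed the threshold. ZNF644 went from 2.57% and 2.47% to 1.63% and 1.47% (−0.68, adjusted p = 0.203).

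The m6A machinery, the writers, erasers and readers of the mark that ALKBH5 removes, had 8 of 19 members lower without overlap (42.1%, against 34.4% of all genes), 3 higher and 0 past the threshold. Its median was −0.29, and −0.14 without the knockdown 1.5 h library of replicate 1. CBLL1, a subunit of the methyltransferase complex, went from 2.51% and 1.81% to 1.13% and 1.26% (−0.82, adjusted p = 0.265). FTO, another m6A demethylase, went from 2.32% and 2.05% to 1.42% and 1.73% (−0.47, adjusted p = 0.35). The share of members lower was thus close to that of all genes. The mRNA decay machinery had 20 of 45 lower (44.4%) and 9 higher. Its median was −0.20, but −0.10 without the knockdown 0 h library of replicate 1 and −0.07 without the 1.5 h library of replicate 1. EXOSC8, a subunit of the RNA exosome, lay on the other side, from 0.472% and 0.438% to 0.775% and 0.771% (0.71, SE 0.139, adjusted p = 0.0654).

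Of the 13 mitochondrially encoded mRNAs, which are made and degraded inside mitochondria, 12 were lower without overlap (92.3%, against 34.4% of all genes), 0 were higher and 1, MT-ND5, fell. Their median change was −0.34. MT-CYB, a complex III subunit, went from 1.09% and 1.06% to 0.749% and 0.738% (−0.50, SE 0.0984, adjusted p = 0.0624), and MT-CO2, a subunit of cytochrome oxidase, from 0.979% and 1.01% to 0.734% and 0.761% (−0.39, SE 0.0768, adjusted p = 0.0631). In both the replicates differed far less than the times.

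The nuclear genes of the same respiratory complexes lay mostly on the other side. Of 71 members tested, 52 were higher at 1.5 h without overlap (73.2%, against 20.4% of all genes) and 2 were lower. Their median rate was 0.325% at 0 h and 0.403% at 1.5 h, with a median change of 0.31. ATP5PF rose, and 13 of the 71 members rose when libraries were centred, against 1.21% of all genes. COX7A2, of cytochrome oxidase, went from 0.331% and 0.350% to 0.456% and 0.431% (0.34, SE 0.067, adjusted p = 0.0674), and ATP5MC3, of the ATP synthase ring, from 0.362% and 0.331% to 0.539% and 0.590% (0.63, SE 0.138, adjusted p = 0.0888). At the level of the list medians, the mitochondrial and the nuclear parts of the respiratory chain were thus on opposite sides of 0. With libraries centred the medians were −0.21 and 0.44. Leaving out 1 knockdown library at 0 h or 1.5 h gave −0.38 to −0.31 and 0.23 to 0.34.

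Ribosomal protein genes were also on the higher side. Of 73 genes of the mitochondrial ribosome, 39 were higher without overlap (53.4%, against 20.4% of all genes) and 4 lower, with a median of 0.35. MRPS18C went from 0.542% and 0.546% to 0.859% and 0.832% (0.59, SE 0.107, adjusted p = 0.056) and MRPL20 from 0.482% and 0.529% to 0.801% and 0.743% (0.57, SE 0.133, adjusted p = 0.102). Of 79 genes of the cytoplasmic ribosome, 36 had higher rates without overlap (45.6%, against 20.4%) and 10 had lower ones, and the median change was 0.21. This list had a median CPM of 449 and a median span of 5383 bases. Among all genes, 37.6% were higher in the quintile of highest CPM and 39.2% in that of shortest span. The share of 45.6% was closer to these than to 20.4%. Other lists of abundant or short genes are to be read beside these shares too. RPL37 went from 0.460% and 0.355% to 0.543% and 0.603% (0.45, SE 0.106, adjusted p = 0.102). No member of either list passed the threshold, and 4 of 73 and 3 of 79 rose when centred, against 1.21% of all genes. Ribosomal protein genes share reads with processed pseudogenes, of which 389 were among the genes tested, with a median change of 0.34.

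Genes of the proteasome and of the cytoskeleton had medians of 0.28 and 0.30. Of 34 proteasome genes 21 were higher without overlap (61.8%, against 20.4% of all genes) and 3 lower, with 0 past the threshold. PSMA4, of the 20S core, went from 0.496% and 0.537% to 0.683% and 0.717% (0.41, SE 0.091, adjusted p = 0.0936). Of 27 actin and tubulin genes 16 were higher (59.3%, against 20.4%) and 5 lower, and MYL6 rose. ACTG1, cytoplasmic actin, went from 0.442% and 0.413% to 0.686% and 0.616% (0.55, SE 0.113, adjusted p = 0.0749) and TMSB4X, a thymosin that holds actin monomers, from 0.318% and 0.283% to 0.399% and 0.392% (0.35, SE 0.0664, adjusted p = 0.0624). In these 3 genes the times did not overlap, and ACTG1 and TMSB4X have pseudogene copies.

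Of 21 heat shock chaperone genes, 11 were higher without overlap (52.4%, against 20.4% of all genes) and 5 lower, with a median of 0.24. HSPE1 rose, and HSP90AB1, the constitutive cytosolic HSP90, went from 0.565% and 0.445% to 0.881% and 0.809% (0.70, SE 0.135, adjusted p = 0.0624). HSPA8, the constitutive HSC70, went from 0.766% and 0.796% to 1.17% and 1.18% (0.56, SE 0.119, adjusted p = 0.0797). In control 8 of the 21 members were higher without overlap and 1 lower, beside 16.4% and 33.5% of all genes, with a median of 0.12. HSPE1 was also higher there, from 0.170% and 0.153% to 0.248% and 0.218%. The control libraries of HSP90AB1 overlapped, at 0.245% and 0.205% at 0 h and 0.227% and 0.210% at 1.5 h.

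Monocyte and macrophage genes, which mark the lineage of these cells, had a median of 0.24, with 22 of 36 higher without overlap (61.1%, against 20.4% of all genes) and 3 lower. FTL rose, and 8 of the 36 members rose when centred, against 1.21% of all genes. Of 46 interferon-stimulated genes 17 were higher (37.0%, against 20.4% of all genes) and 13 lower (28.3%, against 34.4%). Their median of 0.05 turned to −0.03 without the knockdown 1.5 h library of replicate 1. IFI27 went from 0.234% and 0.224% to 0.310% and 0.291% (0.33, SE 0.0589, adjusted p = 0.0558), and the ubiquitin-like ISG15 from 0.437% and 0.397% to 0.540% and 0.593% (0.40, SE 0.0816, adjusted p = 0.0749).

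Mitosis and spindle genes had a median rate of 1.38% at 0 h and 1.59% at 1.5 h in knockdown, against 1.23% and 1.13% over all genes tested. Of 43 members 21 were higher without overlap (48.8%, against 20.4% of all genes) and 4 lower, with a median change of 0.35 and 0 past the threshold. HMMR, a spindle assembly factor, went from 0.621% and 0.792% to 1.08% and 1.49% (0.81, SE 0.26, adjusted p = 0.201), CKAP2, a spindle protein, from 1.58% and 1.93% to 2.28% and 2.42% (0.42, SE 0.14) and HMGB2, a chromatin protein of cycling cells, from 0.998% and 1.06% to 1.42% and 1.44% (0.46, SE 0.145). In control the list's median was −0.05, against −0.15 over all genes tested, and with libraries centred 0.14 against 0.05. There 12 of the 43 members were higher and 11 lower, beside 16.4% and 33.5% of all genes. The list thus lay above all genes in control as well, and 0 members passed the test of the difference between genotypes. Genes of DNA replication and S phase had 10 of 42 higher (23.8%, close to the 20.4% of all genes) and 8 lower.

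Long noncoding RNAs had 10 of 15 lower without overlap (66.7%, against 34.4% of all genes) and 2 higher, with a median of −0.36, and DLEU2 fell. MALAT1, a nuclear noncoding RNA of speckles, was on the other side at 0.512% and 0.515% at 0 h and 0.579% and 0.598% at 1.5 h (0.18, SE 0.0376, adjusted p = 0.0779), and rose when centred (0.31, adjusted p = 0.00419). Hypoxia targets had 9 of 18 lower and 1 higher, with a median of −0.26. The shares in the other lists are to be read beside those of all genes, 20.4% higher and 34.4% lower. Genes of ATF4 and the unfolded protein response had 6 of 30 higher and 11 lower (36.7%), sterol and fatty acid synthesis 6 of 27 higher (22.2%) and 6 lower, snoRNA hosts 4 of 21 higher and 6 lower (28.6%) and the BCL2 family 5 of 22 higher (22.7%) and 9 lower (40.9%). Histones had 4 of 13 higher and 4 lower (30.8% each), polyamine and iron regulators 3 of 14 higher (21.4%) and 4 lower (28.6%), with FTL the member that rose, and G1 regulators 2 of 15 higher (13.3%) and 6 lower (40.0%). Glycolysis genes had 3 of 13 higher (23.1%) and HLA and antigen presentation genes 4 of 15 (26.7%), with 2 lower in each and B2M the HLA list's member that rose. Translation factors had 11 of 37 higher (29.7%) and 4 lower (10.8%), lysosome genes 12 of 33 higher (36.4%) and 5 lower (15.2%) and splicing factors 18 of 37 higher (48.6%) and 11 lower (29.7%). The medians of these 12 lists appear only in the plot of changes by list, since leaving out 1 knockdown library at 0 h or 1.5 h could move each of them by over 1.5 times.

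**Figure D4:**
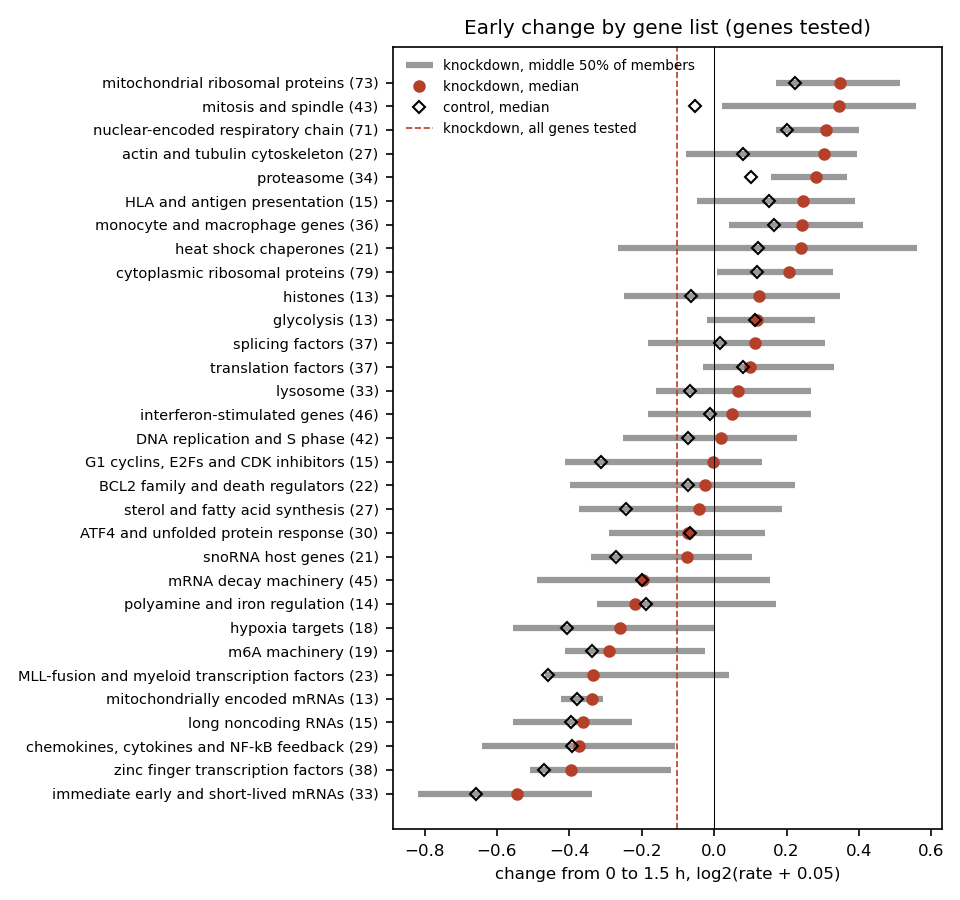
Change in log2(rate in percent + 0.05) from 0 to 1.5 h (x axis) for lists of genes (y axis, number tested in parentheses). Red points are the knockdown median, grey bars the interquartile range of the members, open diamonds the control median, and the dashed line the knockdown median over all genes tested, −0.10. The list medians run from −0.54 for immediate early mRNAs to 0.35 for mitochondrial ribosomal proteins.

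The early change followed the length of the gene. Genes in the shortest quintile by annotated span, up to 10575 bases, had a median change of 0.24 log2, with 39.2% higher and 13.3% lower without overlap. The medians of the next quintiles were 0.08, −0.11 and −0.27. In the longest quintile, from 113925 bases up, the median was −0.38, with 6.77% higher and 61.2% lower. In control the medians were 0.14 in the shortest and −0.44 in the longest quintile. Across 10494 genes, which share libraries and are not independent replicates, the Spearman correlation of span and knockdown change was −0.412, against −0.334 for transcript length and −0.257 for the number of exons. Within the shortest quintile of genes with a 3' UTR the nonamer went with a lower median, −0.20 (n = 66) against 0.23 (n = 1703), and in the fourth quintile both medians were −0.29. Whether reads from introns entered the rates is not given in the sources used here, and their part in this order was not tested.

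**Figure D5:**
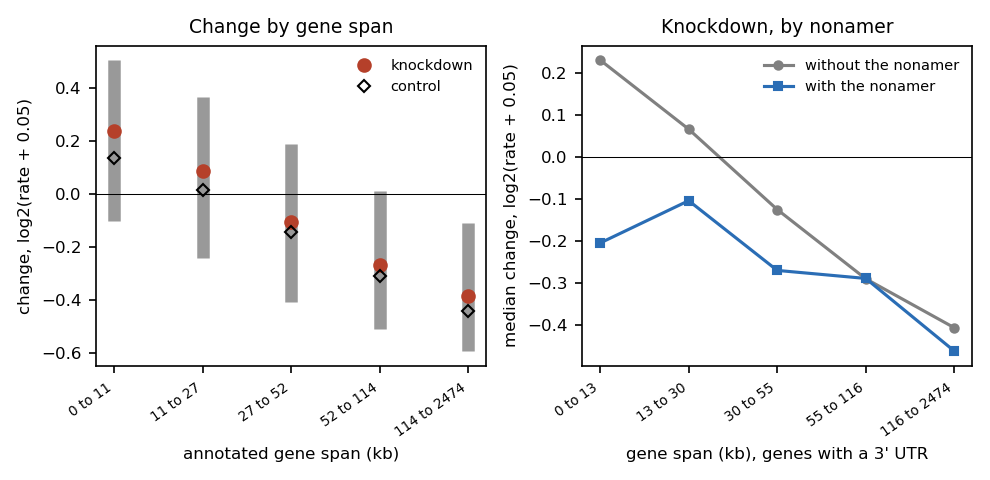
Left, the median change in log2(rate in percent + 0.05) from 0 to 1.5 h (y axis) for quintiles of the genes by annotated span in kilobases (x axis), with red points for knockdown, open diamonds for control and grey bars for the interquartile range in knockdown. Right, the knockdown median for genes with (blue squares) and without (grey circles) the nonamer in the 3' UTR. The medians go from 0.24 in the shortest to −0.38 in the longest quintile.

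The change also went with the rate a gene had at the start, measured in the control libraries so that no knockdown library entered both values. In the quintile with the lowest control rate at 0 h the knockdown median change was 0.26, and in the quintile with the highest rate it was −0.41. The Spearman correlation over 10549 genes was −0.481. With CPM the relation was weaker, at 0.150, and the quintile of the most abundant genes had a median of 0.09 against −0.20 in the least abundant. Starting rate and gene span varied together. The median knockdown rate at 0 h was 0.549% in the shortest quintile by span and 1.67% in the longest. Their separate parts in the change were not tested.

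The control cells, measured in other libraries, were followed over the same interval. By limma 9 genes rose (0.0853%) and 35 fell (0.332%), with a median of −0.15. With libraries centred 104 rose (0.986%) and 9 fell (0.0853%), against 128 (1.21%) and 7 (0.0664%) in knockdown, so the balance of directions depends on the scaling in both genotypes. Uncentred, both 1.5 h libraries were above both 0 h libraries for 16.4% of genes and below them for 33.5%. Of the 13 genes that rose in knockdown, 12 were also higher without overlap in control, as VPS29 was, at 0.179% and 0.175% at 0 h and 0.306% and 0.323% at 1.5 h (0.69). Of the 7 that fell, 6 were also lower without overlap in control, as DLEU2 was, at 0.875% and 0.890% at 0 h and 0.559% and 0.576% at 1.5 h (−0.59). Across 10549 genes the changes in the genotypes had a Spearman correlation of 0.422 and a Pearson correlation of 0.309.

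The test of the difference between genotypes, knockdown change minus control change, called 0 genes in either direction by limma. The smallest adjusted p was 0.534, and at an unadjusted p under 0.05 there were 248 genes with a higher and 143 with a lower change in knockdown. The median standard error of the difference was 0.525 log2, so differences of the size of most changes described here were not detectable at this precision. The median difference was 0.07. ITGB2, the beta chain of leukocyte integrins, went from 0.210% and 0.218% to 0.299% and 0.260% in knockdown and from 0.194% and 0.199% to 0.112% and 0.0858% in control (1.05, SE 0.21, adjusted p = 0.771).

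ARHGDIA, an inhibitor of small GTPases, went from 0.464% and 0.503% to 1.09% and 1.05% in knockdown and from 0.448% and 0.373% to 0.322% and 0.272% in control (1.48, SE 0.312, adjusted p = 0.842). TIMM17B, of the mitochondrial import channel, went from 0.479% and 0.4996% to 0.377% and 0.251% in knockdown and from 0.0641% and 0.151% to 0.294% and 0.412% in control (−1.99, SE 0.458). In ITGB2, ARHGDIA and TIMM17B the 1.5 h libraries lay on opposite sides of the 0 h libraries in the genotypes, without overlap, but none passed after adjustment. Among the genes past the threshold in the knockdown early chase, the differences varied. They were small with narrow errors in VPS29 at −0.02 (SE 0.111), FTL at 0.01 (SE 0.0824) and MT-ND5 at −0.02 (SE 0.129). They were larger in BANF1 at 0.68 (SE 0.19), CENPX at 0.63 (SE 0.247), NEXN at 0.43 (SE 0.16) and ZSCAN32 at −1.67 (SE 0.442), without passing after adjustment.

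Within the knockdown, the change per hour in the first 1.5 h was compared with that between 1.5 h and 4.5 h. The median was −0.07 log2 per hour early and −0.14 per hour in the middle interval, so the median was closer to 0 at first. No gene passed the limma test of the difference (0 in each direction, smallest adjusted p = 0.0741), while at an unadjusted p under 0.05 there were 418 genes with a higher early change and 77 with a lower one. MTIF3 (0.89 per hour, adjusted p = 0.0741) and SON (0.43 per hour, adjusted p = 0.0741) had the smallest p. SON, a speckle protein of splicing, started at 1.78% and 1.88%, reached 2.12% and 2.04% after 1.5 h and stood at 1.04% and 1.11% by 4.5 h, so that its 1.5 h libraries were the highest of these 6.

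Genes that earlier work ties to ALKBH5 in myeloid leukaemia did not share 1 direction. AXL, a cell surface tyrosine kinase of the TAM receptors, had rates of 0.829% and 0.717% at 0 h and 0.801% and 0.747% at 1.5 h, which overlapped. KDM4C, a histone demethylase, went from 1.60% and 1.76% to 1.26% and 1.40% (−0.32, SE 0.202, adjusted p = 0.526) without overlap. MYB, a transcription factor of blood progenitors, had 1.68% and 2.16% at 0 h and 2.04% and 1.53% at 1.5 h, again overlapping. PROS1, a ligand of TAM receptors, went from 2.27% and 1.48% to 0.824% and 1.13% (−0.89, adjusted p = 0.382). Of the 7 genes of this set tested, 1 was higher without overlap (14.3%, against 20.4% of all genes) and 2 were lower (28.6%, against 34.4%). Neither share exceeded that of all genes. The median of these 7 genes, −0.11, turned to 0.02 when centred and to 0.05 without the knockdown 1.5 h library of replicate 2.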

How the data were processed

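SLAM-seq was measured in 16 THP-1 libraries, 2 per genotype and time, grouped by the labels. The deposited table gives a fraction between 0 and 1 per gene and library, read from the values and the assay as the T-to-C conversion rate and printed in percent. It also has 1 CPM column, per the file headers, whose library is not stated. CASAVA, HISAT2 2.1.0 and hg38 are named in the submitters' processing notes. Not given in the sources used here: the caller of conversions, variant masking and the annotation. Column names starting with C match the control, and the S columns were assigned to the knockdown by elimination. No library without 4sU was used here.

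Rates in percent plus 0.05 were put on the log2 scale and fitted with limma 3.58.1 (R 4.3.3) as 8 group means over 16 libraries, with variances moderated along log2(CPM + 0.01) and p-values adjusted by Benjamini-Hochberg over 10549 genes, at a threshold of 0.05. Sharing the spread over all groups gave 8 residual degrees of freedom. Gene positions and 3' UTRs came from GENCODE 29, which matched 58457 identifiers. The depth behind each rate is unknown. Named genes are those past the threshold (the 10 largest per direction with at least 20 CPM), members of each list by smallest p, the smallest p of each other test and the genes tied to the study. Of the genes and sites that met these rules, 1 gene and 1 site are not reported here but were kept in the fits and totals. Further genes, ZSCAN32, ATP5PF, FTL and B2M among them, were chosen after their values were seen. The gene lists and comparisons were chosen with earlier results of these data known. Alternatives were the pseudocount, the CPM minimum, centring, the trend, fewer libraries and a replicate block.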

Additional observations from a re-analysis of the deposited data

How the results depend on the processing

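The 13 rises became 7 at a pseudocount of 0.01 and 81 at 0.2, 8, 45 and 76 at a CPM minimum of 1, 20 and none, 128 with libraries centred, and 0 without the variance trend, with the knockdown libraries only and with the 4 libraries only. The 7 falls became 1 and 107, 1, 28 and 63, and 0 in the same last 3 settings. Leaving out 1 library gave 0 to 0 rises and 0 to 0 falls. The cause was not tested, other than that fewer libraries entered these fits. Correlations of deviations by replicate number over 28 pairs of groups ran from −0.0396 to 0.0376. They showed no large deviation shared by replicate number. They cannot tell whether libraries with the same number were matched cultures, since deviations of single genes also hold counting noise. With a replicate block the counts were 16 and 5. Centring took away a common shift of the libraries, so its calls are relative to it. The difference between genotypes had 1 gene lower in knockdown at a CPM minimum of 1 and with none, and 0 otherwise. Early against middle had 3, 1, 3 and 52 higher at a pseudocount of 0.2, a CPM minimum of 1, of 20 and none, and 6 lower with none. With 2 libraries per group and an unknown number of bases behind each rate, the precision is that of the replicate spread pooled over the 8 groups. The median standard error was 0.371 log2 for the early change. The groups were not alike, with median replicate differences of 0.260 and 0.249 log2 in knockdown at 0 h and 1.5 h and 0.456 log2 in control at 7.5 h.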
